A study of Sus scrofa with 16 samples.

Results

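The genes described here are 48 endothelial and angiogenesis genes, chosen by symbol as markers of capillary, arterial, venous and lymphatic endothelium, their receptors and ligands, and 2 genes of the pericytes that wrap small vessels. The deposited tables list 22629 genes, of which 45 are these: 44 under their symbol and *PDPN* under an Ensembl identifier that a reference name table pairs with it. *CLDN5*, *SOX7* and *SELE* have no row under their symbol or a paired identifier and were not analysed here. All 45 passed the filter on low counts in every comparison. They were measured by RNA-seq in left ventricular tissue of young pigs. At 1 month of age, 4 pigs had their left anterior descending artery occluded for 1 hour and then reperfused (IR), and 4 pigs had the same operation without occlusion (sham). Tissue was collected 4 weeks later, at 2 months of age, from the scar zone, just below the occlusion site, and from the adjacent border zone. Each pig gave 1 sample of each zone, which makes 16 samples, and each surgery group held 2 females (IR pigs 2 and 14, sham pigs 4 and 5) and 2 males (IR pigs 9 and 11, sham pigs 12 and 13). The scar zone of a sham pig is a piece of the same size at the site of the suture, which had surgery but no occlusion, and scar zone pieces of IR pigs were a mixture of viable muscle and scar.

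Endothelial cells line every vessel, and the working heart is one of the most densely capillarised tissues. Growth of new vessels is driven mainly by VEGF ligands acting on the receptor KDR. It is stabilised by angiopoietins acting on TEK, and patterned by Notch signals that separate tip, arterial and venous cells. Inflamed venules display selectins and the adhesion molecules VCAM1 and ICAM1, which slow and hold circulating leucocytes.

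Library totals ran from 15427700 to 49045200 estimated counts, and the 4 libraries of the IR males were the deepest, all at or above 33521400 against at most 27088700 elsewhere. All values below are CPM, counts set relative to the library total after TMM scaling, unless TPM, which also corrects for transcript length, is named. Cardiomyocyte markers were abundant in every library, between 56841 and 93527 CPM summed over the cardiomyocyte list, as the tissue label implies. The scar zone library of the female IR pig 14 held the Y-linked transcripts *DDX3Y* (4.48 CPM) and *KDM5D* (0.408 CPM). The other 7 female libraries were at 0.389 to 1.23 CPM and at 0. The 8 male libraries were at 68.4 to 103 CPM and 4.27 to 10.1 CPM. Main edgeR counts of endothelial genes at the unadjusted threshold that use the pig 14 scar library are therefore given with and without pig 14. Counts for the cell marker lists and the further vascular genes are given with pig 14 only, as are those under other scalings or models. Fits with a replicate block were not run without pig 14. In whole tissue, fewer cells of a type and less RNA per cell cannot be told apart.

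In sham scar zone tissue the endothelial genes spanned more than 2 orders of magnitude on the TPM scale. *PECAM1*, the junctional adhesion molecule of all endothelium, was highest at 144 ± 18.9 TPM (mean ± SD, n = 4), and the pericyte gene *RGS5* followed at 110 ± 15.9 TPM. The values of these neighbours met at 124 TPM, the lowest for *PECAM1* and the highest for *RGS5*. Below *RGS5* came *APLN*, at 73.9 ± 17.9 TPM, which rested on only 109 to 171 estimated counts per library, with an effective transcript length 0.0271 times that of *PECAM1*, so its place in the order is uncertain. *ESAM*, *CDH5*, *EGFL7*, *VEGFB* and *VEGFA* followed together at means of 51.0 to 56.7 TPM, within each other's spread. Of the adhesion and venular genes, *VCAM1* was at 14.9 ± 1.68 TPM and *ICAM1* at 6.67 ± 1.43 TPM, with *SELP* far lower at 0.661 ± 0.519 TPM and *ACKR1* between 0.290 and 0.779 TPM. *ANGPT1* was lowest of all, at 0.381 ± 0.0612 TPM. In all, 42 of the 45 genes averaged at least 1 TPM.

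The first comparison was IR against sham in the scar zone, which asks how the vascular transcripts of the injured wall stood 4 weeks after reperfusion. No endothelial gene passed an adjusted p-value of 0.05 in edgeR's quasi-likelihood test (Benjamini-Hochberg), nor did any of the 14023 genes tested (0%). The smallest adjusted p over the 45 genes was 0.438. DESeq2 passed 75 genes, none of them among the 45. At an unadjusted p of at most 0.05, 2 of the 45 were higher in IR pigs (*ICAM1*, *ACKR1*) and 2 lower (*EGFL7*, *PROX1*), against 6.57% and 4.64% of all genes tested. Thus 4.44% of the 45 passed in each direction. No member had IR and sham values that did not overlap in the scar zone, against 2.03% of all genes higher and 2.85% lower. These counts moved with single pigs. Without pig 14 they were 4 higher (8.89% of the 45, against 10.3% of all genes) and 5 lower (11.1% against 6.38%). Without pig 2 they were 5 (11.1% against 10.2%) and 8 (17.8% against 8.0%), so that in both fits the share lower was above that of all genes. Without pig 11 both were 0, against 3.24% and 2.41% of all genes. Without pig 5 they were 1 and 0 (3.43% and 2.18% of all genes), and without pig 4 they were 3 and 1 (5.15% and 3.08%). Leaving out pig 9, 12 or 13 gave 1 and 1, where all genes were at 3.77% to 6.23% higher and 3.23% to 5.01% lower.

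The direction of small differences was less even than these calls. In the scar zone 31 of the 45 genes had a negative log2 fold change by TMM scaling, but 21 of 42 on log2(TPM + 1), a scale on which the median of all genes itself moved from 0.03 to 0.15. Set against the median of all genes tested, 34 of 45 were below it by TMM and 34 of 42 by TPM. The median over the 45 genes was -0.14, which is 0.16 below that of all genes, and it was 0.15 below on log2(TPM + 1). On the same TPM scale the genes past the unadjusted threshold split 811 higher to 175 lower over all genes, against 922 to 650 by TMM. Border zone differences were negative for 35 of 45, with a median of -0.14 against 0.00 for all 13728 genes tested. That border zone median was -0.07 without pig 11, with 32 of 45 negative, and -0.22 without pig 14, with 36 negative. By difference of the group means, the border zone median over the 45 was -0.28 in males and -0.02 in females. These counts over genes carry no test. The size of the differences was modest, since 39 of 45 scar zone and 40 of 45 border zone values lay within 0.5 either way on the log2 scale, and the 95% intervals reached 0.45 and 0.43 to each side in the median.

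**Figure D1:**
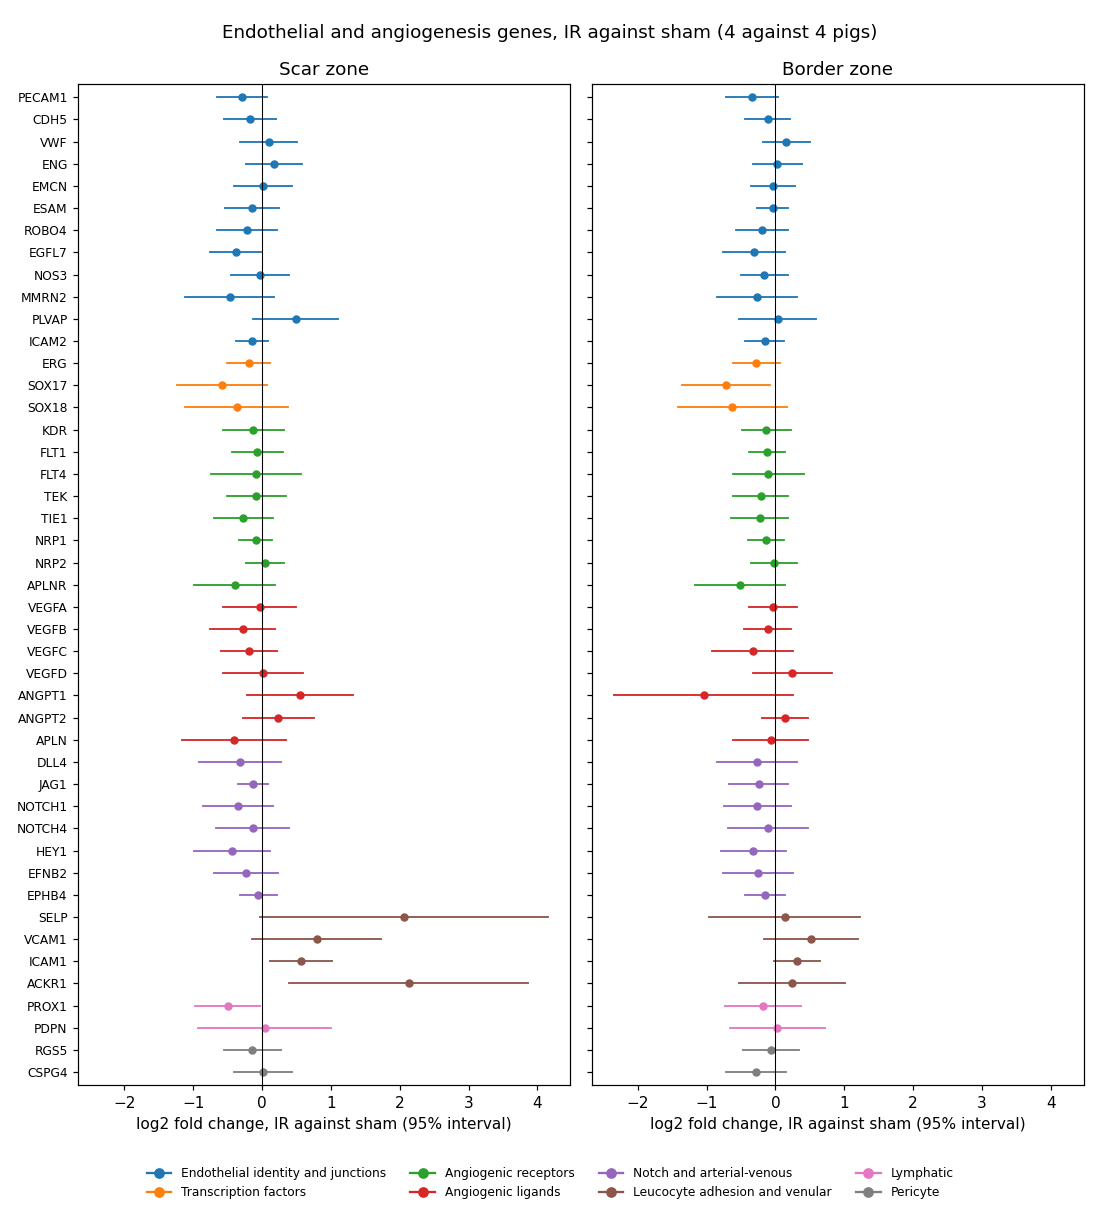
Log2 fold changes of the 45 genes, IR against sham, with 95% intervals from edgeR's quasi-likelihood fit, in the scar zone (left) and border zone (right), coloured by role. In the scar zone the intervals of *ICAM1*, *ACKR1*, *EGFL7* and *PROX1* do not hold 0, and in the border zone that of *SOX17*.

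Border zone tissue answers the same question next to the injury. No gene of 13728 passed an adjusted p of 0.05 by edgeR (0%), and the smallest adjusted p among the 45 was 0.988; DESeq2 passed 3 genes, none of the 45. At an unadjusted p of at most 0.05, 0 of the 45 were higher and 1 lower (*SOX17*), against 2.09% and 1.69% of all genes tested. *SOX17* was also the 1 gene of the 45 whose IR and sham values did not overlap, against 1.22% of all genes lower and 0.838% higher. The lower count ran from 0, without pig 5, 9 or 11, to 4, without pig 2 or 14. Those 4 are 8.89% of the 45, against 2.78% of all genes without pig 2 and 2.15% without pig 14, and the counts of 0 stand against 1.07%, 2.8% and 1.03% without pigs 5, 9 and 11. It was 2 without pig 4 or 13 (4.44%, against 1.54% and 1.8%) and 3 without pig 12 (6.67% against 1.86%).

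The 4 measured leucocyte adhesion and venular genes had a median scar zone log2 fold change of 1.43, and all 4 were positive. The median was 0.92 with sex as a covariate and 0.67 with 1 factor of unwanted variation, again with all 4 positive, and 0.68 over the 2 that passed the filter on log2(TPM + 1). The median difference of the group means was 2.14 in males and -0.30 in females. *ACKR1*, the venular receptor that binds and presents chemokines, was at 1.15 and 1.02 CPM in the female IR pigs 2 and 14 and at 7.28 and 13.9 CPM in the males 9 and 11, against 2.00, 0.867, 1.48 and 1.07 CPM in sham pigs 4, 5, 12 and 13. Both IR males were far above every sham pig and both IR females lay within the sham range, so the groups overlapped. The log2 fold change was 2.13 (SE 0.78, adjusted p = 0.438 by edgeR; exact permutation test, two-sided, p = 0.314), and 1.27 to 2.47 with each pig left out. With sex as a covariate it was 1.49.

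*SELP*, P-selectin, which tethers rolling leucocytes, followed the same pigs. IR pigs 2, 14, 9 and 11 were at 0.401, 0.747, 7.44 and 10.9 CPM and sham pigs 4, 5, 12 and 13 at 2.54, 0.693, 0.65 and 0.911 CPM (log2 fold change 2.06, 95% interval -0.03 to 4.15). *VCAM1*, the ligand of leucocyte integrin VLA-4, was at 18.2, 29.0, 80.2 and 79.7 CPM in IR pigs against 30.2, 27.4, 32.0 and 30.3 CPM in the sham group (log2 fold change 0.80, SE 0.42). Again the IR males stood above all sham pigs, while pig 2 was the lowest of the 8. *ICAM1*, which holds leucocytes through beta-2 integrins, was at 20.7, 18.3, 27.3 and 31.7 CPM against 20.04, 14.99, 13.6 and 17.9 CPM. Its groups overlapped by a single pair, pig 14 lying below sham pig 4, and its log2 fold change of 0.57 (SE 0.20, adjusted p = 0.438) ranged from 0.42 to 0.68 on leaving out single pigs (exact permutation test, p = 0.0571; the smallest p that 4 against 4 allows is 0.0286).

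**Figure D2:**
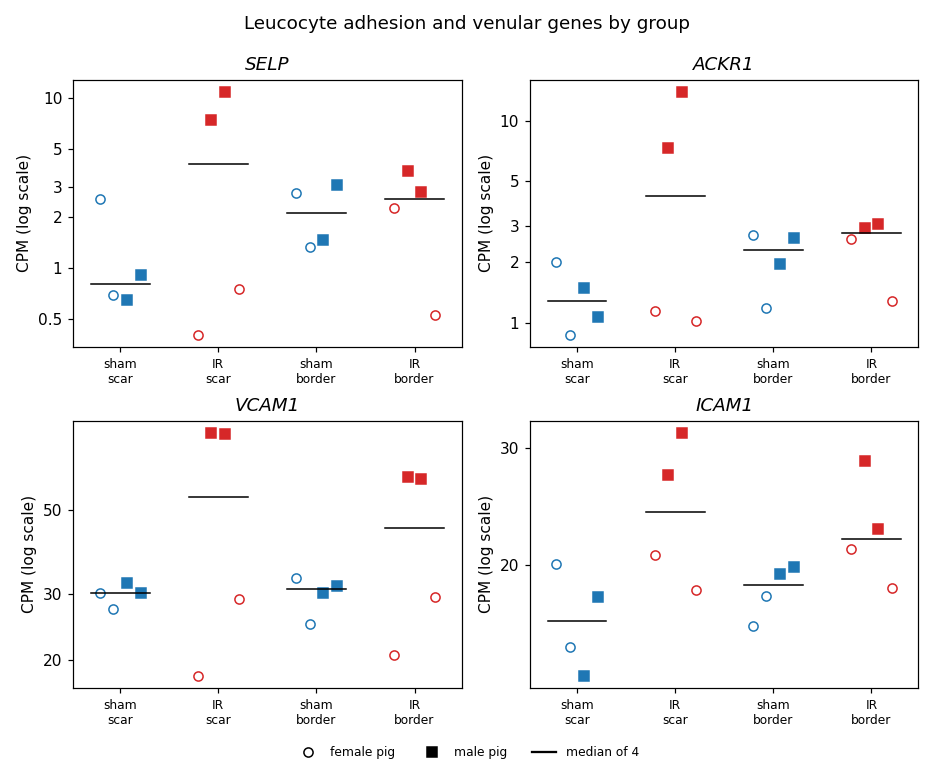
*SELP*, *ACKR1*, *VCAM1* and *ICAM1* in each library, in CPM on a log scale, by surgery and zone, with females as open circles, males as filled squares and the median of 4 as a line. The 2 male IR scar samples lie above every sham scar sample in all 4 panels. For *VCAM1*, *ICAM1* and, narrowly, *ACKR1*, the male IR border samples lie above every sham border sample.

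Next to the injury, *VCAM1* was at 61.2 and 60.5 CPM in pigs 9 and 11 against 20.7 and 29.4 CPM in pigs 2 and 14 and 33.0, 25.0, 30.3 and 31.5 CPM in sham pigs 4, 5, 12 and 13. Border zone *ICAM1* was at 21.1, 18.4, 28.7 and 22.6 CPM in IR pigs 2, 14, 9 and 11 and 16.1, 17.9, 19.4 and 19.8 CPM in sham pigs, so that for both genes the IR males again lay above every sham pig. *ACKR1* was at 2.61, 1.29, 2.94 and 3.06 CPM against 2.72, 1.17, 1.94 and 2.62 CPM there, with the IR males narrowly above every sham pig. *SELP* in the IR males was at 3.74 and 2.81 CPM, on either side of the highest sham value of 3.06 CPM. Markers of other cells moved with these genes. All 8 fibroblast markers had positive scar zone log2 fold changes (median 0.90). Of these, 3 had an unadjusted p of at most 0.05, led by *COL1A1* at 1.96, against 6.57% of all genes higher. The 8 fibroblast markers summed to 24359 and 33004 CPM in the scar zone of pigs 9 and 11, against 5893 and 4743 CPM in pigs 2 and 14 and 5595 to 7467 CPM in sham pigs. The 8 leucocyte markers summed to 290.5 and 319.5 CPM in those 2 samples against 146 and 176 CPM in pigs 2 and 14 and 116 to 224 CPM in sham pigs. Across the 8 border zone libraries the fibroblast sum was 5174 to 7896 CPM. The part of cell composition in the adhesion genes was not tested.

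The pan-endothelial genes *PECAM1*, *CDH5* and *VWF* had smaller scar zone differences than the adhesion genes, with intervals that held 0. *PECAM1* was at 281, 408, 282 and 289.7 CPM in the scar zone of IR pigs 2, 14, 9 and 11 and at 361, 466, 351 and 359.6 CPM in sham pigs 4, 5, 12 and 13. Of the IR pigs, 3 lay below every sham pig and pig 14 above all but 1 (log2 fold change -0.28, 95% interval -0.65 to 0.08). Border zone values were 271, 412, 328 and 273 CPM against 424, 475, 339 and 391 CPM, with -0.35 (-0.72 to 0.03). *CDH5*, VE-cadherin of the adherens junction, was at 169.7, 218, 126 and 166 CPM in IR against 206, 197, 161 and 202 CPM in sham scar zones, with -0.17 (-0.55 to 0.21). *VWF*, the platelet-binding glycoprotein stored with P-selectin, was at 275, 225, 204 and 312 CPM against 297, 181, 232 and 243 CPM, with 0.10 (-0.32 to 0.51). Both genes overlapped between the groups. Their border zone values were 152, 217, 185 and 155 CPM against 167, 203, 183 and 211 CPM for *CDH5* and 273, 234, 289.5 and 211 CPM against 187, 202, 239 and 273 CPM for *VWF*, again overlapping.

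**Figure D3:**
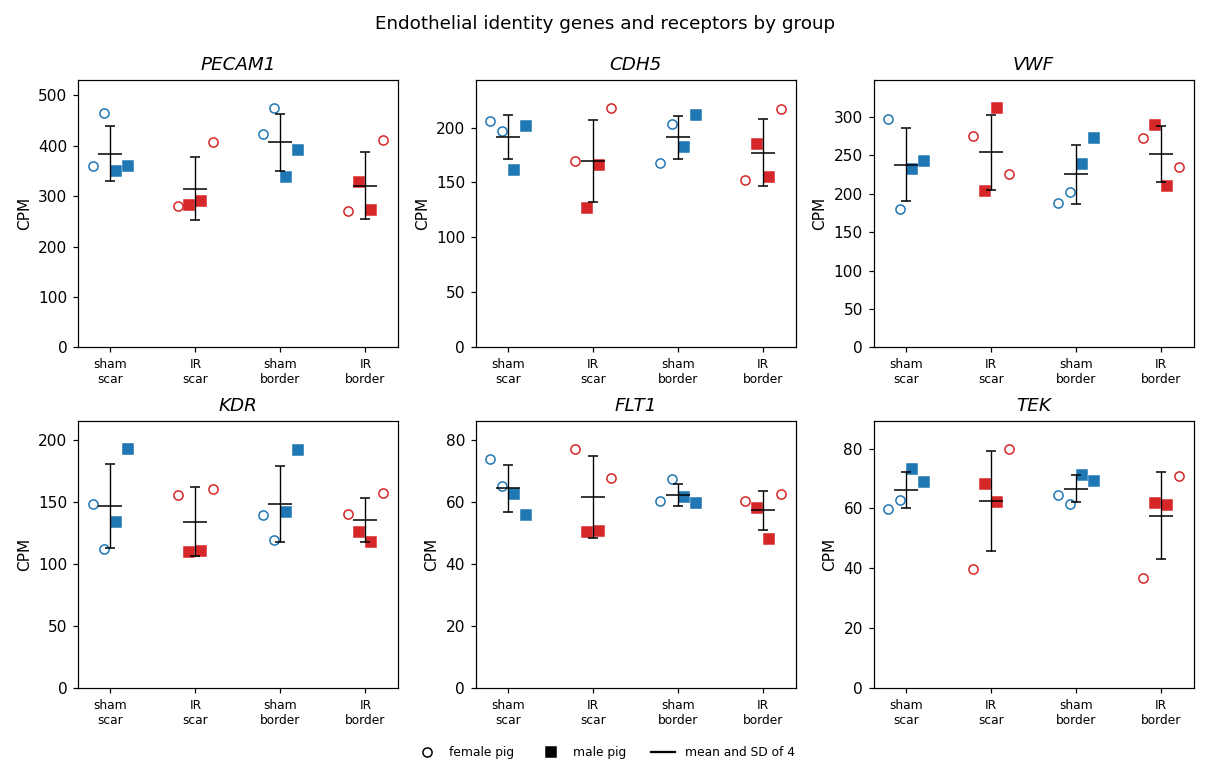
*PECAM1*, *CDH5*, *VWF*, *KDR*, *FLT1* and *TEK* in each library, in CPM from 0, by surgery and zone, with bars at the mean and SD of 4 pigs. IR and sham values overlap in every panel and zone.

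Among the other 9 identity genes, *EGFL7*, a secreted factor of sprouting endothelium, was the 1 past the unadjusted threshold in the scar zone. It was at 57.5, 45.9, 42.3 and 34.5 CPM in IR pigs 2, 14, 9 and 11 and at 65.5, 60.7, 49.3 and 59.9 CPM in sham pigs 4, 5, 12 and 13. IR pig 2 lay above sham pig 12, and the other IR pigs were below every sham pig. The log2 fold change was -0.38 (SE 0.17, adjusted p = 0.441 by edgeR; exact permutation test, p = 0.0571), and -0.53 to -0.27 with each pig left out. Border zone *EGFL7* was at 59.8, 42.6, 54.4 and 29.6 CPM against 64.2, 62.7, 50.2 and 53.7 CPM. *PLVAP*, which forms the diaphragms of fenestrated and venular endothelium, had the highest difference of the 12, 0.49 (-0.12 to 1.10). *MMRN2*, an endothelial matrix protein, had the lowest, -0.47 (-1.12 to 0.18). *ENG*, *EMCN*, *ESAM*, *ROBO4*, *NOS3* and *ICAM2* lay between -0.22 and 0.17 there. The 12 border zone values ran from -0.35 to 0.16.

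The 3 endothelial transcription factors had negative log2 fold changes in both zones, by TMM, upper-quartile and DESeq2 scaling and on all 3 TPM scales. *SOX17*, which specifies arterial endothelium, was at 2.70, 1.93, 1.91 and 1.32 CPM in the border zone of IR pigs 2, 14, 9 and 11 and at 2.82, 4.34, 2.72 and 2.97 CPM in sham pigs 4, 5, 12 and 13. The groups touched without overlapping, with 2.70 CPM in pig 2 just under 2.72 CPM in pig 12. The log2 fold change was -0.72 (SE 0.29, adjusted p = 0.988 by edgeR), and it rested on 33 to 85 estimated counts per library. Its scar zone value was -0.58 (-1.23 to 0.07), with IR pigs at 3.04, 1.70, 1.58 and 1.94 CPM and sham pigs at 3.27, 3.94, 2.31 and 2.77 CPM. *SOX18*, of the same family, was at -0.37 (scar) and -0.63 (border), and *ERG*, which maintains endothelial identity, at -0.19 and -0.28. None of these reached an adjusted p of 0.05.

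The 8 angiogenic receptors differed by at most 0.40 in the scar zone on the log2 scale. *KDR*, the main VEGF receptor, was at 156, 161, 109 and 111 CPM in the scar zone of IR pigs 2, 14, 9 and 11 and at 148, 112, 134 and 192 CPM in sham pigs 4, 5, 12 and 13 (log2 fold change -0.13, -0.57 to 0.32). *FLT1*, the decoy-like VEGF receptor, was at 77.1, 68.0, 50.4 and 50.8 CPM against 74.1, 65.4, 62.7 and 55.9 CPM (-0.07, -0.44 to 0.31). For both, the IR females were at or above most sham pigs and the IR males were below all 4, and the negative sign held by TMM but turned positive on log2(TPM + 1), at 0.06 and 0.09. *TEK*, the angiopoietin receptor, was at 39.9, 79.8, 68.1 and 62.3 CPM against 60.0, 62.8, 73.2 and 68.7 CPM (-0.08, -0.51 to 0.34), with pig 2 lowest and pig 14 highest of the 8. Border zone values of the 3 receptors overlapped as well. *KDR* was at 141, 158, 126 and 118 CPM against 139.7, 119.6, 142 and 192 CPM, *FLT1* at 60.4, 62.6, 58.2 and 48.3 CPM against 60.4, 67.7, 61.6 and 59.6 CPM, and *TEK* at 36.7, 70.7, 61.8 and 61.0 CPM against 64.4, 61.5, 71.2 and 69.3 CPM. The remaining receptors were *FLT4*, *TIE1*, *NRP1*, *NRP2* and *APLNR*. The largest of their differences was that of *APLNR*, the apelin receptor, at -0.40 (-0.98 to 0.19, scar zone) and -0.52 (-1.17 to 0.14, border zone). Pig 11 was lowest for it, at 41.9 and 30.4 CPM, against 70.5 to 111 CPM over all sham libraries.

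Ligands showed no common direction. *VEGFA*, the chief hypoxia-induced angiogenic factor, was at 218, 166, 117 and 97.0 CPM in the scar zone of IR pigs 2, 14, 9 and 11 and at 176, 145, 136 and 155 CPM in sham pigs 4, 5, 12 and 13. The IR female pig 2 was the highest of the 8 and the IR males the lowest, and the log2 fold change was -0.03 (-0.56 to 0.50) by TMM and 0.09 on log2(TPM + 1). *VEGFB*, a heart-rich VEGF family member, was at 82.6 CPM in both IR males, below every other scar zone library (-0.28, -0.75 to 0.19). *APLN*, a ligand made by sprouting tip cells, was at 6.48, 3.87, 2.12 and 3.22 CPM against 5.09, 4.81, 3.94 and 6.77 CPM (-0.40, -1.16 to 0.36). *VEGFC* and *VEGFD*, the lymphatic growth factors, were at -0.19 and 0.02, and *ANGPT2*, which destabilises vessels, at 0.23. *ANGPT1*, the stabilising angiopoietin, was at 1.55, 1.90, 2.58 and 4.53 CPM in IR and 1.54, 1.86, 2.17 and 1.70 CPM in sham scar zones (0.55, -0.22 to 1.33). Next to the injury *VEGFA* was at 124, 164, 187 and 119 CPM against 164, 149, 143 and 152 CPM, and *APLN* at 6.80, 6.19, 5.68 and 3.73 CPM against 4.67, 6.18, 4.76 and 7.76 CPM, with IR values on both sides of the sham range for *VEGFA*.

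All 7 Notch and arterial-venous genes had negative log2 fold changes in the scar zone by TMM, and 5 of 7 on log2(TPM + 1), where all 7 lay below the median of all genes. All 7 border zone values were negative on both scales, with a median of -0.25 by TMM. *DLL4*, the tip cell Notch ligand, was at 23.4, 18.0, 10.8 and 11.1 CPM in the scar zone of IR pigs 2, 14, 9 and 11 against 20.6, 20.2, 14.9 and 23.4 CPM in sham pigs 4, 5, 12 and 13 (-0.32, -0.92 to 0.27). *HEY1*, a Notch target that represses venous fate, was at 13.6, 14.5, 7.68 and 7.32 CPM against 13.5, 12.3, 15.9 and 16.2 CPM (-0.44, -0.99 to 0.11). In both genes the IR males, and no IR female, lay outside the sham range. Border zone *DLL4* was at 17.4, 22.6, 16.7 and 8.30 CPM against 15.5, 23.0, 19.4 and 19.8 CPM. *NOTCH1* and *NOTCH4*, the endothelial Notch receptors, were at -0.35 and -0.14, *JAG1*, a second ligand, at -0.14, *EFNB2*, the arterial ephrin, at -0.23, and *EPHB4*, its venous receptor, at -0.05. None passed the unadjusted threshold in either zone.

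Of the lymphatic pair, *PROX1*, the master factor of lymphatic identity that cardiomyocytes also express, was lower in the scar zone at an unadjusted p of at most 0.05. It was at 17.5, 29.6, 25.3 and 16.6 CPM in IR pigs 2, 14, 9 and 11 and at 28.1, 40.2, 29.7 and 27.7 CPM in sham pigs 4, 5, 12 and 13. Pig 14 was within the sham range and the other 3 below it (log2 fold change -0.50, SE 0.21, adjusted p = 0.438 by edgeR; exact permutation test, p = 0.0857). Border zone values overlapped, at 16.1, 28.8, 33.0 and 18.8 CPM against 20.8, 36.2, 26.8 and 25.3 CPM. *PDPN*, podoplanin, which fibroblasts also make, ran from 14.9 to 64.8 CPM among IR and 20.3 to 54.6 CPM among sham scar zones, with 0.04 (-0.92 to 1.01). Of the pericyte pair, *RGS5*, a regulator of G-protein signalling, was at 397, 633, 417 and 428 CPM against 411, 490.4, 559.9 and 609.9 CPM (-0.14, -0.56 to 0.27). *CSPG4*, the NG2 proteoglycan, was at 33.8, 23.8, 44.2 and 26.5 CPM against 32.3, 33.7, 29.2 and 32.0 CPM (0.02, -0.40 to 0.44). Both pericyte genes overlapped between the groups, as they did in the border zone, where *RGS5* was at 356, 637, 513 and 499.6 CPM against 419, 554, 575 and 556 CPM and *CSPG4* at 32.2, 22.3, 23.2 and 17.9 CPM against 21.6, 32.9, 29.6 and 31.7 CPM.

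**Figure D4:**
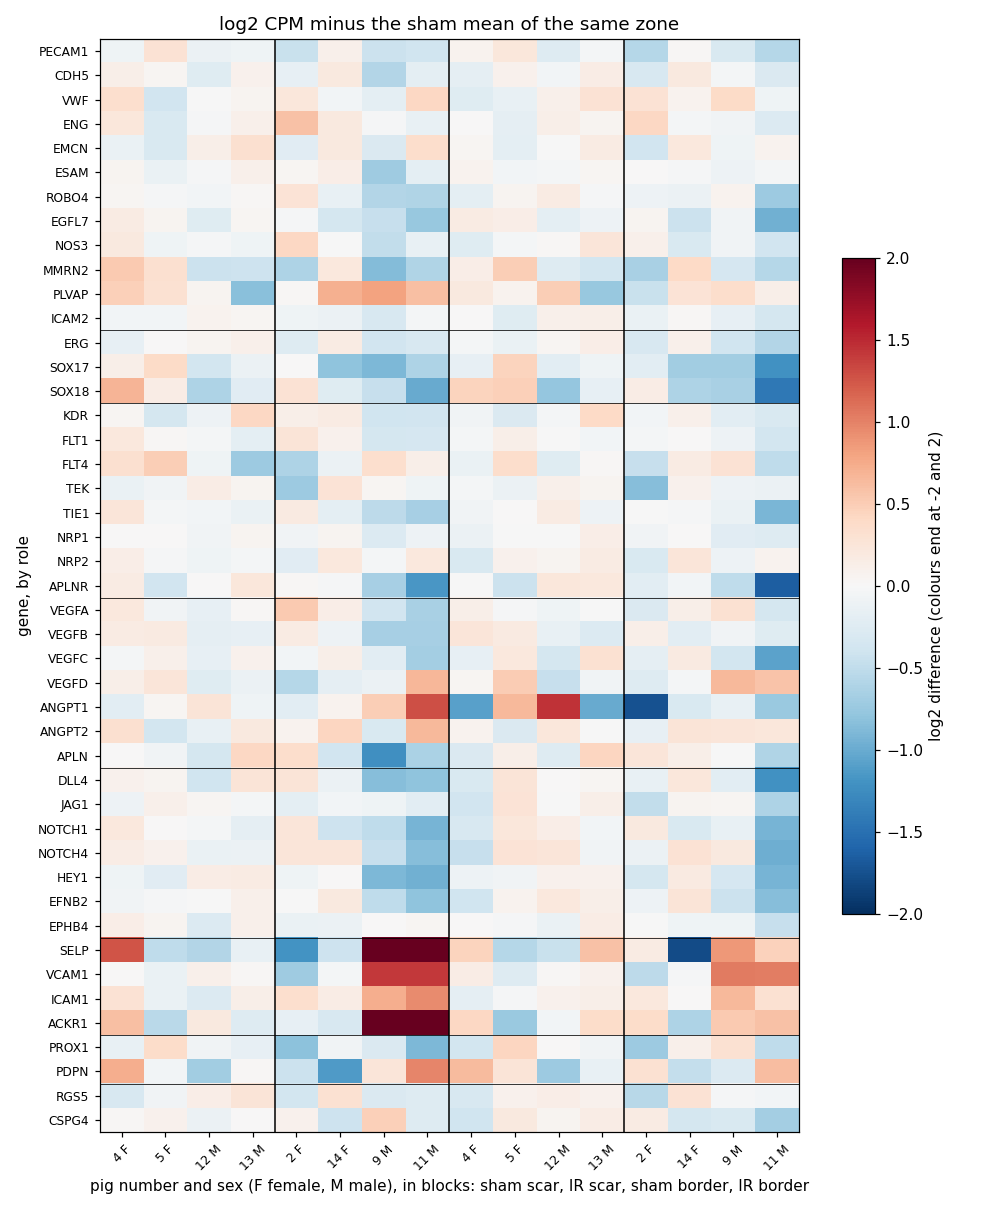
Log2 CPM of each of the 45 genes in each of the 16 libraries, minus the sham mean of the same zone, with genes ordered by role and pigs by surgery, zone and sex. In the IR scar block, pigs 9 and 11 are red for *SELP*, *ACKR1*, *VCAM1* and *ICAM1* and blue for most Notch genes, receptors and *VEGFA*, while pigs 2 and 14 are pale for most genes.

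Whether the effect of IR differed between zones was tested as the scar zone effect minus the border zone effect. No gene of 14278 passed an adjusted p of 0.05 by edgeR (0%), DESeq2 passed 0, and at an unadjusted p of at most 0.05 1 of the 45 was higher (*ANGPT1*) and 0 lower, against 1.96% and 0.259% of all genes. *ANGPT1* differed by 1.60 on the log2 scale (SE 0.74, adjusted p = 1.00; exact permutation test, p = 0.171). Its sham border zone values were 1.26, 4.39, 7.68 and 1.33 CPM in pigs 4, 5, 12 and 13, against 0.772, 2.22, 2.48 and 1.62 CPM in IR pigs 2, 14, 9 and 11, with sham pigs 5 and 12 above every IR pig. Leaving out pig 5, 11 or 12 left none of the 45 called, against 1.18%, 0.969% and 1.04% of all genes higher. Without pig 14 there were 2 higher and 0 lower, against 3.35% and 0.552%. Both samples of a zone pair came from 1 animal, so the fit was repeated with the pig as a replicate block. It gave 2 higher (*ANGPT1*, *PLVAP*) and 1 lower (*PROX1*), against 4.24% and 2.75% of all genes, with 0 past an adjusted p of 0.05 and an adjusted p of 0.702 for each of the 3.

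*PLVAP* and *PROX1* were also the genes whose within-pig differences did not overlap between IR and sham pigs, 1 in each direction, against 2.03% and 1.97% of all genes. The scar minus border difference of *PLVAP* in log2 CPM was 0.42, 0.37, 0.40 and 0.43 in IR pigs 2, 14, 9 and 11 and 0.22, 0.19, -0.49 and -0.14 in sham pigs 4, 5, 12 and 13. All 4 IR pigs, males and females, thus lay above every sham pig. For *PROX1* it was 0.12, 0.04, -0.38 and -0.18 in IR pigs and 0.44, 0.15, 0.15 and 0.13 in sham pigs, where pig 2 lay just under the lowest sham pig.

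Within IR pigs, scar against border zone, no gene of 14170 passed an adjusted p of 0.05 by edgeR (0%), while DESeq2 passed 4, none of the 45. At an unadjusted p of at most 0.05 none of the 45 was higher or lower, against 3.55% and 0.805% of all genes, and without pig 14 none was either, against 4.26% and 0.945%. With the replicate block 2 were higher (*PLVAP* by 0.42, *CSPG4* by 0.43) and 1 lower (*VEGFD*, -0.40), against 6.49% and 4.81% of all genes, each with an adjusted p of 0.431. Within sham pigs no gene of 13803 passed an adjusted p of 0.05 (0%), DESeq2 passed 1, not among the 45, and at an unadjusted p of at most 0.05 none of the 45 was called, against 0.341% and 0.478% of all genes. With the replicate block 1 was higher (*PROX1*, 0.21) and 4 lower (*SELP*, *ACKR1*, *ICAM2* and *PDPN*, by -0.95, -0.65, -0.21 and -0.21), against 2.68% and 2.09% of all genes and with an adjusted p of 0.931. The venular genes *SELP* and *ACKR1* were lower in the scar than in the border piece of all 4 sham hearts, with differences of -1.66 to -0.12 and -1.23 to -0.37 in log2 CPM. In IR pigs 9 and 11 the same difference was positive, at 0.98 and 1.93 for *SELP* and 1.29 and 2.16 for *ACKR1*. In the IR females 2 and 14 it was -2.29 and 0.45 for *SELP* and -1.13 and -0.31 for *ACKR1*, so *SELP* was positive in 3 of 4 IR pigs.

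Because the IR males stood apart from the IR females, a surgery by sex term was fitted in each zone, as an analysis added after these values were seen. Its p-values come from the libraries that prompted it and are no independent evidence. It compares 2 IR with 2 sham pigs in each sex, so sex, the individual pig, library depth and the fibroblast and leucocyte content of the piece cannot be told apart. In the scar zone 3 of the 45 genes passed an adjusted p of 0.05 by edgeR (*SELP*, *VCAM1* and *HEY1*), against 1.52% of 14023 genes. The IR minus sham difference of *SELP* was 3.42 in males and -1.18 in females in log2 CPM, and the fitted difference between sexes was 5.06 (SE 0.88, adjusted p = 0.0403). For *VCAM1* it was 1.36 in males and -0.32 in females (1.66, SE 0.28, adjusted p = 0.0397), and for *HEY1* -1.09 and 0.12 (-1.21, SE 0.22, adjusted p = 0.0441). *SELP* and *VCAM1* were higher, and *HEY1* lower, in both IR males than in every sham male. *SELP* averaged only 0.661 TPM in sham scar zones and rests on few counts, and its female difference leans on sham pig 4, well above sham pig 5. Every one of the 3 calls was lost on leaving out pig 4, 9, 11, 12 or 13; without pig 5 *SELP* alone passed, and without pig 2 or 14 *VCAM1* alone. The sex difference kept its sign in all these fits, at 3.84 to 5.71 for *SELP*, 1.36 to 2.02 for *VCAM1* and -1.29 to -1.14 for *HEY1*. Over all genes the count past the threshold went from 213 to 1 without pig 12 or without pig 13, and DESeq2 passed 954 genes and 8 of the 45.

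At an unadjusted p of at most 0.05 the same term had 8 of the 45 higher in males and 8 lower, or 17.8% each, against 9.62% and 9.06% of all genes tested. Without pig 14 the counts were 9 higher and 13 lower, against 8.81% and 8.15% of all genes. The lower count was 4 without pig 5 or without pig 13, against 8.01% and 5.68%, and 6 to 9 without any other pig, against 6.47% to 10.5%. The higher count was 6 to 9 in all these fits, against 6.9% to 10.7% of all genes. With all pigs, the 8 higher were *SELP*, *ACKR1*, *VCAM1*, *ICAM1*, *PLVAP*, *FLT4*, *VEGFD* and *PDPN*. The 8 lower were *KDR*, *APLNR*, *VEGFA*, *DLL4*, *NOTCH4*, *HEY1*, *EFNB2* and *ROBO4*. Over the 45 genes the median IR minus sham difference in the scar zone was -0.31 in males and -0.02 in females, and over the 7 Notch and arterial-venous genes it was -0.61 and 0.01. Over the 4 adhesion and venular genes it was 2.14 in males, with all 4 above 0, and -0.30 in females, with 3 of 4 below 0. Border zone tissue had no endothelial gene past an adjusted p of 0.05 for this term, against 0.0146% of 13728 genes. At an unadjusted p of at most 0.05, 2 were higher in males (*VCAM1*, *VEGFD*) and 3 lower (*KDR*, *APLNR*, *EFNB2*), against 3.04% and 3.85% of all genes. The lower count was 9 without pig 9 (3.69% of all genes) and 5 without pig 2 (3.95%), and the higher count 4 without pig 2 or 14 (2.82% and 4.11%). Those 5 were called in the scar zone as well, in pieces from the same pigs.

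**Figure D5:**
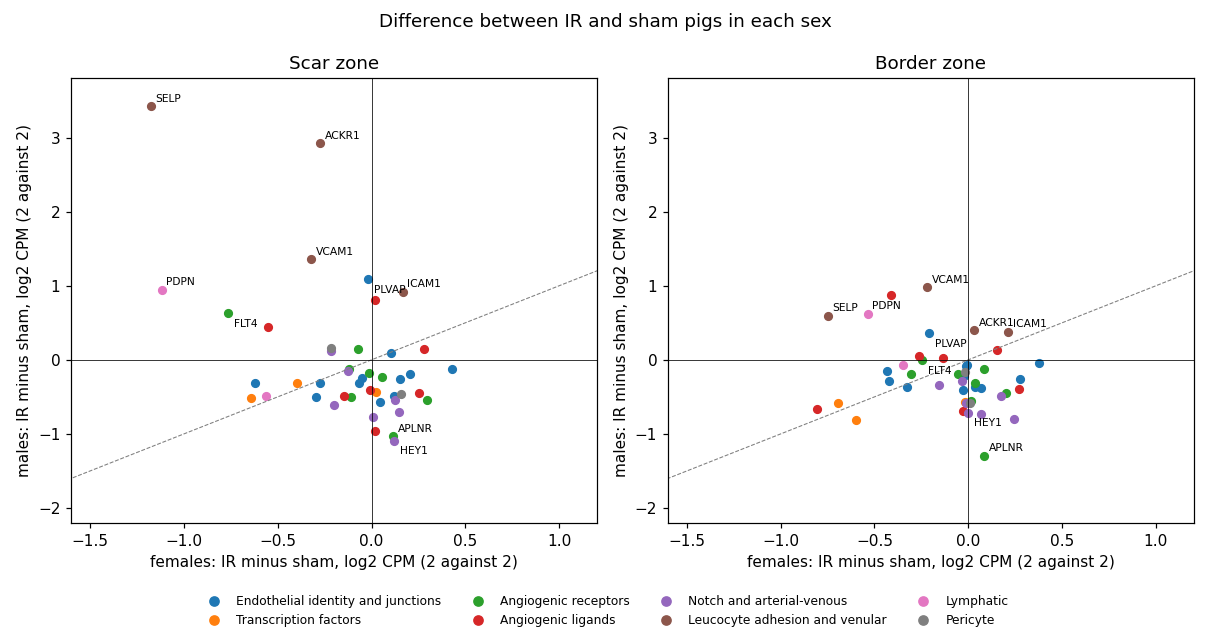
IR minus sham difference in mean log2 CPM of each of the 45 genes in females (horizontal) and males (vertical), 2 against 2 pigs each, in the scar zone (left) and border zone (right); the dashed line marks equal differences. *SELP*, *ACKR1* and *VCAM1* lie far above the line in the scar zone, and *HEY1* and *APLNR* below it.

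A further 58 of 60 vascular genes listed beside the 45 were measured, and none passed an adjusted p of 0.05 in any of the 5 comparisons by edgeR. In the scar zone 2 were higher at an unadjusted p of at most 0.05, *THBS2*, an anti-angiogenic matrix protein (log2 fold change 1.86), and *ANPEP*, an aminopeptidase of angiogenic vessels and myeloid cells (2.22), against 6.57% of all genes. The 5 lower were *HIF3A* (-0.74), *FGF1* (-0.49), *EPAS1*, the endothelial hypoxia factor (-0.48), *PDGFA* (-0.47) and *S1PR1*, a receptor that keeps junctions closed (-0.42), against 4.64% of all genes. Next to the injury 1 was higher (*MMRN1*, 0.70) and 4 lower, among them *PDGFA* and *EPAS1* again (-0.46 and -0.36), with *KLF2*, the factor induced by laminar flow (-0.55), and *ARHGEF15* (-0.34), against 2.09% and 1.69% of all genes. For the zone difference of the IR effect 2 were higher, *THBS2* (1.67) and the venous factor *NR2F2* (0.77), and none lower, against 1.96% and 0.259% of all genes. Between the zones of IR pigs 4 were higher in the scar, *THBS2* (1.74), *THBS1* (0.91), *NR2F2* (0.64) and the scavenger receptor *STAB1* (0.55), against 3.55% of all genes, and in sham pigs *HIF3A* (0.58) was, against 0.341%. The median over the 58 was -0.03 (scar zone) and -0.18 (border zone).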

How the data were processed

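RNA-seq was analysed in 16 left ventricular samples, with surgery, zone, sex and pig taken from the labels. The deposited tables hold estimated counts and TPM per gene, which the authors made by kallisto quantification against Ensembl cDNA of the pig. The submitters' processing notes name kallisto 0.43.1, Trimmomatic 0.33 and HISAT2 2.0.5. Libraries were made with a stranded mRNA kit, and the genome build is not given in the sources used here. Of 22629 rows, 15095 carry symbols and 7534 Ensembl identifiers, of which 889 were given a symbol from a reference table.

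Estimated counts were rounded and tested with edgeR 4.0.16 (quasi-likelihood, TMM, filterByExpr with a minimum count of 10 and a minimum total of 15) in R 4.3.3, with p-values adjusted by Benjamini-Hochberg across the genes tested. IR was compared with sham in each zone, the zones within IR and within sham pigs, and the zone difference of the IR effect. Log2 CPM had a prior count of 2. Intervals are 95%. Exact permutation tests were two-sided, 4 against 4 pigs. The 45 genes had more than 3 estimated counts in every library. The comparisons share samples, so their results are not independent of each other.

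Alternatives were DESeq2 1.42.0, upper-quartile scaling, no filter, limma 3.58.1 on log2(TPM + 1) and log2(TPM + 0.1) for genes with at least 1 TPM in 4 samples, sex as a covariate, 1 factor of unwanted variation from 5000 control genes, a fit of all 16 samples, a replicate block and leaving out each pig. Same-numbered samples came from 1 pig, and the deviations of its 2 samples correlated at 0.344 to 0.774 over 12592 genes. The surgery by sex term was added after the data were seen. The scripts were checked on simulated data.

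The genes and lists were chosen with earlier results of these data known. Named with their value in every sample are genes at an unadjusted p of at most 0.05 in a comparison without the block, genes whose groups do not overlap in a zone, and anchors of each role (*PECAM1*, *CDH5*, *VWF*, *KDR*, *FLT1*, *TEK*, *VEGFA*, *APLN*, *DLL4*, *VCAM1*, *ACKR1*, *PROX1*, *RGS5*, *CSPG4*). *SELP*, *HEY1*, *APLNR*, *PLVAP* and *VEGFB* were added after their values were seen.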

Additional observations from a re-analysis of the deposited data

Results flagged for a closer look

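In 4 of 72 groups of 4 pigs, 1 sample stood apart from the other 3 by Dixon's ratio of gap to range above its 95% critical value; chance flags about 1 in 20 groups. *PECAM1* in the IR scar zone had a ratio of 0.919, with pig 14 at 408 CPM and the others at 281 to 289.7 CPM. In the sham scar zone its ratio was 0.903, with pig 5 at 466 CPM and the others at 351 to 361 CPM. *RGS5* in the IR scar zone had a ratio of 0.837, with pig 14 at 633 CPM and the others at 397 to 428 CPM. In the sham border zone its ratio was 0.881, with pig 4 lowest at 419 CPM and the others at 554 to 575 CPM.

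The surgery by sex term in the scar zone passed an adjusted p of 0.05 for *SELP* (adjusted p = 0.0403), *VCAM1* (adjusted p = 0.0397) and *HEY1* (adjusted p = 0.0441) by edgeR's quasi-likelihood test, a term fitted to 2 pigs in each cell because the IR males were seen to stand apart, so it is no independent evidence. Sex, the individual pig, library depth and fibroblast and leucocyte content cannot be told apart, and all 3 calls were lost without pig 4, 9, 11, 12 or 13. *SELP* and *VCAM1* were higher, and *HEY1* lower, in 2 of 2 IR males than in every sham male. Against every sham female, 0 of 2 IR females differed in that direction for any of the 3 genes.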

How the results depend on the processing

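No endothelial gene passed an adjusted p of 0.05 in any of the 5 comparisons under any alternative, and none of the 6 genes named at an unadjusted p of at most 0.05 changed direction in the comparison that called it (*EGFL7* and *PROX1* did in others, on TPM). Other members did so in the scar zone: on log2(TPM + 1) 10 turned from negative to positive (*ESAM*, *NOS3*, *ICAM2*, *KDR*, *FLT1*, *FLT4*, *VEGFA*, *JAG1*, *EPHB4*, *RGS5*), and the identity genes' median went from -0.15 to 0.03. *VEGFD* and *PDPN* turned negative with sex as a covariate and with 1 factor of unwanted variation. In the scar zone (2 higher, 2 lower) upper-quartile scaling gave 1 lower, against 4.66% of all genes. All 3 limma fits on TPM gave 1 higher and 0 lower, with medians over the genes of -0.00057 for log2(TPM + 1), -0.0033 for log2(TPM + 0.1) and 0.032 without a filter, against 5.59% to 6.69% and 1.42% to 1.6% of all genes. The fit of all 16 samples gave 0 lower (all genes 5.07%), sex as a covariate 1 higher and 4 lower (7.72% and 8.08%), and 1 factor of unwanted variation 1 higher and 6 lower (7.79% and 9.04%). In the border zone (0 and 1) sex as a covariate gave 1 higher and 2 lower (all genes 2.64% and 1.89%), and the factor 2 lower (2.55%). For the zone difference (1 and 0) DESeq2 and no filter gave 2 higher (all genes 2.02% and 2.0%), and limma and the factor 0 (0.705% to 1.48%, and 1.9%). The factor gave 1 lower within IR and 1 lower within sham pigs (1.39% and 1.04%). With the replicate block, the paired fit, the zone difference had 2 higher and 1 lower, IR pigs 2 and 1, and sham pigs 1 and 4; it changed no adjusted call. Leaving out each pig gave 0 to 5 higher (all genes 3.24% to 10.3%) and 0 to 8 lower (2.18% to 8.0%) in the scar zone. In the border zone it gave 0 to 1 higher (0.886% to 4.14%) and 0 to 4 lower (1.03% to 2.8%). For the zone difference it gave 0 to 2 higher (all genes 0.797% to 3.63%). It gave 0 to 1 each way in IR pigs (0.984% to 4.28% higher, 0.35% to 1.1% lower) and 0 to 1 lower in sham pigs (0.274% to 0.45%). The cause of these shifts was not tested, except that fits without a pig hold fewer samples.

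Over all genes in the scar zone, the calls were 1083 higher and 1133 lower with sex as a covariate and 1093 and 1268 with the factor, against 922 and 650. In the border zone the split was 287 to 232 by TMM and 240 to 122 by limma on log2(TPM + 1). With the replicate block 606 and 392 genes were called for the zone difference, against 280 and 37, 919 and 682 in IR pigs, against 503 and 114, and 370 and 289 in sham pigs, against 47 and 66. Leaving out each pig gave 458 to 1478 higher and 311 to 1139 lower in the scar zone. With 4 pigs a group, the 95% intervals of the 45 scar zone differences reached 0.45 to each side in the median on the log2 scale, which limits the differences that could be detected. *SELP*, *ACKR1*, *ANGPT1*, *SOX17* and *APLN* rest on the fewest estimated counts, at 7, 15.3, 16, 25 and 57 in their lowest libraries.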
